A study of Rattus norvegicus with 30 samples.

Results

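H3K4me3 ChIP-seq of the rat embryo cortex was compared between maternal diets. The libraries were chosen by their antibody label, which gave 6 of the 30 ChIP-seq libraries of the series, 3 for each diet. All came from the brain cortex of Wistar rat embryos at E14.5, and the groups differed, by their labels, in the diet of the dam. Control dams were fed normal chow, and HFD dams were fed a high fat diet with 60% of its calories from fat, which began before mating and had made them obese by then. According to the study's methods, the frontal cortices of a whole litter were pooled for each experiment, so that a library holds embryos of one litter and a mixture of cortical cell types. The other libraries of the series carry antibodies to total H3, pan H4, H4K16Ac and H3K27me3 and were used only beside H3K4me3. No marker genes could be read from these data to check the tissue label, because the coordinates are those of the genome build rn6 and the gene tables at hand describe another assembly. For the same reason regions are given below by their rn6 position, with no gene and no sequence.

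H3K4me3, the trimethylation of lysine 4 on histone H3, is the characteristic histone mark of active and poised promoters. It is laid down by the MLL and SET1 methyltransferase complexes, is removed by KDM5 demethylases, and typically flanks the nucleosome-depleted start site, so that a promoter often carries neighboring summits on either side. Wide H3K4me3 domains are known from genes that define the identity of a cell, and in the developing brain the mark is found together with the repressive H3K27me3 at many genes that are held ready for differentiation.

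For each diet the authors called 1 list of peaks on the 3 libraries together. The lists held 113056 intervals with 123221 summits in control and 107919 intervals with 117684 summits in HFD. Since the 3 litters of a diet share 1 list, how far litters of the same diet vary is unknown, and no test between diets was possible. The values below are descriptions, and where a share has a 95% Wilson interval this covers counting error alone. The height of a peak is given as its summit pileup, the number of fragments that overlap the strongest position, which the authors' fold enrichment and p-value together determine. The most frequent local background was 1.23 fragments per base in control and 1.08 in HFD, so that the HFD background was 87.7% as deep. Pileups were therefore divided by this background of their own list, and the quotient is called the relative pileup. The weakest listed summits had 4 fragments in each list, the median summit had 9 in each, and the highest had 5724 in control and 6551 in HFD.

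H3K4me3 intervals were slightly narrower in HFD, and the widest ones were fewer. The median interval spanned 469 bp in control and 455 bp in HFD, a ratio of 0.970, and all intervals together covered 67.1 and 62.1 Mb, which was 0.925 times as much in HFD. Classes below include their lower and exclude their upper limit. The ratio was alike across the distribution, with 10th percentiles of 314 and 306 bp, 90th percentiles of 1045 and 1008 bp and 99th percentiles of 1799 and 1750 bp. From 300 bp upward the ratio of interval numbers fell from each width class to the next. Intervals of 300 to 500 bp were 0.942 times as many in HFD (56602 in control, 53347 in HFD), and those of 500 to 1000 bp were 0.929 times as many (38337 and 35613). At 1000 to 2000 bp the ratio was 0.854 (12302 and 10511), and at 2000 to 5000 bp it was 0.824 (636 and 524). The fall did not go on among the few widest, as intervals of at least 2500 bp numbered 158 in control and 136 in HFD, a ratio of 0.861. No interval reached 5000 bp in either list.

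The narrowest class went the other way, with 5179 intervals under 300 bp in control and 7924 in HFD, a ratio of 1.53. The lower end of a MACS2 list is by default set by the estimated fragment length, and the shortest control and HFD intervals spanned 289 and 282 bp. The other narrow lists showed the same order of shortest interval and narrow class, as total H3 had 276 bp in control and 267 bp in HFD with a ratio of 1.34 under 300 bp, and pan H4 had 283 and 285 bp with a ratio of 0.728. With the shortest interval of its own list subtracted, an alternative chosen after seeing the data, the ratio of the median H3K4me3 widths was 0.961. Total H3 intervals were also slightly narrower in HFD, with medians of 450 bp in control and 441 bp in HFD, a ratio of 0.980. Their 90th percentiles were 984 and 970 bp. Pan H4 intervals were slightly wider in HFD, with medians of 477 and 488 bp, a ratio of 1.02. The fall in intervals of at least 1000 bp was not shared by these antibodies. Intervals of at least 1000 bp numbered 12938 in control and 11035 in HFD for H3K4me3, a ratio of 0.853. They numbered 16135 and 16176 for total H3, a ratio of 1.00, and 21980 and 23605 for pan H4, a ratio of 1.07. The HFD lists of total H3 and pan H4 had a higher background than their control lists (111.2% and 109.6%), whereas that of H3K4me3 was lower, and the part of depth in these ratios was not tested.

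**Figure D1:**
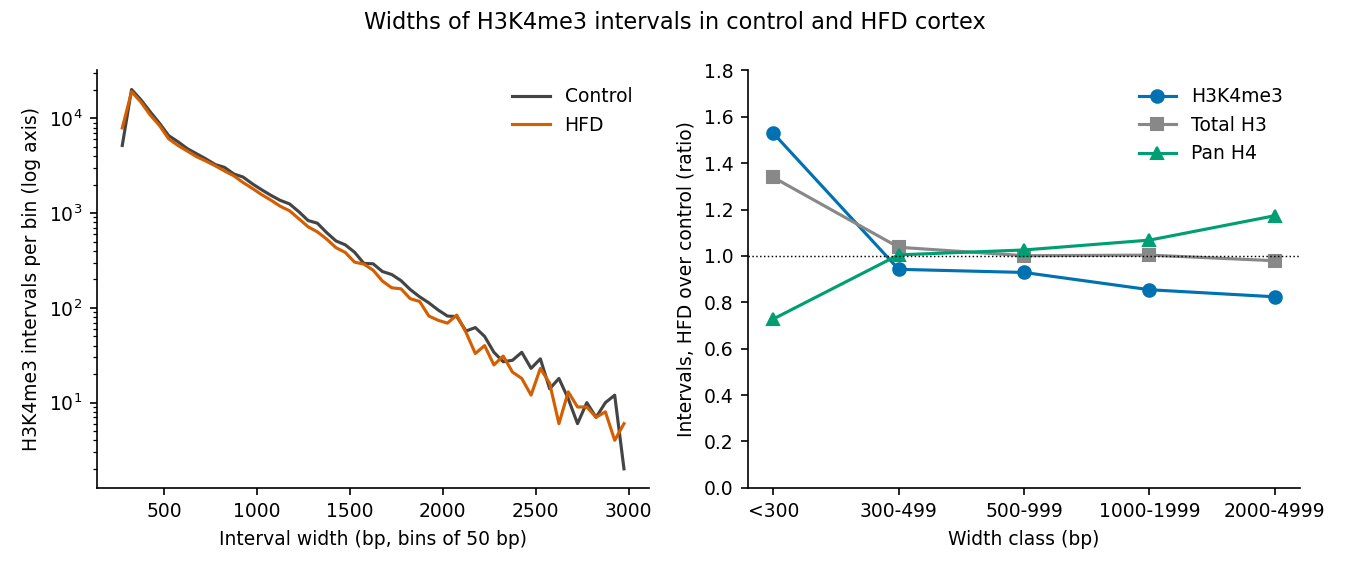
Left, number of H3K4me3 intervals per 50 bp of width (x axis, bp) on a log y axis in the control and HFD lists. Right, number of intervals in HFD over that in control (y axis, ratio) by width class, with 1 line for each of the narrow antibodies H3K4me3, total H3 and pan H4, each point being 1 pair of lists without an error. For H3K4me3 the ratio went from 1.53 under 300 bp to 0.824 at 2000 to 5000 bp, whereas pan H4 went from 0.728 to 1.17.

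Each of the 3 widest intervals of either list overlapped an interval of the other list, and 1 place was the widest in both. The widest control interval was chr20:5258328-5263225, of 4898 bp with 7 summits, and the HFD interval there, chr20:5259231-5263126, was also the widest of its list, with 3896 bp and 5 summits. Its relative pileup was 64.9 in control and 77.7 in HFD, and the strongest summits lay 2153 bp apart. The second widest in control, chr9:110328309-110332107, spanned 3799 bp with 5 summits, and the HFD interval spanned 2513 bp with 3 summits at almost the same relative pileup (90.9 in control and 90.7 in HFD). The third, chr1:187898131-187901636, kept its width (3506 bp in control and 3442 bp in HFD) while its summits went from 4 to 7. These control regions therefore differed from their HFD counterparts in extent or in how they were divided. Their relative pileup in HFD was 1.20, 0.998 and 1.34 times that in control. In HFD the second widest interval was chr8:67295073-67298886, with 3814 bp and 8 summits, the largest number of summits in either list. The control interval there was 1878 bp wide with 3 summits, although its relative pileup was higher (108 in control and 84.2 in HFD). The third widest in HFD, chr6:30629817-30633394, of 3578 bp, had a relative pileup of 939 in HFD and 637 in control. Total H3 was also very high there, with a relative pileup of 747 in control and 855 in HFD, and pan H4 had 489 and 991.

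The number of summits per interval hardly differed between diets. Intervals with 2 or more summits made up 7.56% of the control list (8543) and 7.50% of the HFD list (8098), a ratio of 0.993, which turned to 1.03 when neighboring intervals were merged and to 1.04 among intervals of at least 500 bp. Wide intervals held slightly more summits in HFD. At 1000 to 2000 bp, 45.4% of the control intervals and 50.2% of the HFD intervals had several summits, with means of 1.52 and 1.59 summits. At 2000 to 5000 bp the shares were 96.7% and 95.4%, with means of 3.14 and 3.30. Intervals with 2 summits numbered 7268 in control and 6796 in HFD, whereas those with 3 numbered 1007 and 1017 and those with 4 numbered 207 and 225. At 1 to 4 summits the HFD intervals were narrower. The medians were 1165 bp in control and 1132 bp in HFD at 2 summits, and 1720 and 1662 bp at 3 summits. At 5 or more summits, which few intervals had, the direction varied. The medians were 2764 bp in control and 2819 bp in HFD at 5 summits, and 3227 and 3103 bp at 6. Neighboring summits of 1 interval lay a median of 504 bp apart in control and 496 bp in HFD. The middle range of this spacing was 370 to 654 bp in control and 364 to 644 bp in HFD, so that the spacing was nearly the same in both lists.

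The interval with most summits besides those above was chrX:14951714-14954645, with 7 summits in control over 2932 bp and 7 in HFD over 2951 bp. The interval chr5:100646758-100649926 had 7 summits in control and 5 in HFD at widths of 3169 and 3152 bp. The relative pileup of the former was 81.2 in control and 100 in HFD, and that of the latter was 73.0 and 83.3, so that both were higher in HFD.

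Wide and high H3K4me3 intervals were nearly always found in both diets, and the intervals found in 1 diet were narrow and weak. An interval was called shared when it overlapped an interval of the other list by at least 1 bp. By this measure 45.1% of the control intervals (50992) had no HFD interval and 42.3% of the HFD intervals (45615) had no control interval. Both lists hold many weak intervals, with q-values of up to 0.499. Of the 47802 control intervals with a −log10 q under 2, 29.1% were kept in HFD. The share of control intervals kept in HFD rose with width, from 24.3% under 300 bp to 36.9% at 300 to 500 bp, 72.05% at 500 to 1000 bp and 94.9% at 1000 to 2000 bp. At 2000 to 5000 bp, 635 of 636 control intervals were kept. In the HFD list the shares also in control were 28.8%, 41.6%, 76.6% and 95.7%, and 519 of 524 intervals at 2000 to 5000 bp. Width and strength go together in such lists, and width was therefore also read within classes of −log10 q. Among control intervals with a −log10 q of 2 to 5, the share kept still rose from 38.4% under 300 bp to 47.2%, 67.6%, 81.7% and 96.6% in the classes of greater width. The last of these shares was 28 of 29 intervals (82.8% to 99.4%). Wider intervals also offer more bases for an overlap of 1 bp, and with an overlap of at least 50% of both intervals the share of control intervals of at least 1000 bp that were kept was 84.3% in place of 95.2%.

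Retention by the other measures of strength was graded in the same manner. Of the control intervals with 1 summit 51.4% were kept, with 2 summits 96.8%, with 3 summits 99.3% and with 4 or more all 268. In the HFD list all 285 intervals with 4 or more summits were in control. By relative pileup the control share kept was 24.4% under 5, 53.0% from 5 to 10, 83.4% from 10 to 20 and 97.7% from 20 to 50. At a −log10 q of 50 and over, 8667 of 8668 control intervals and 5885 of 5888 HFD intervals were shared. Total H3 kept 71.8% of its control intervals and pan H4 70.6%, against 54.9% for H3K4me3 (54.6% to 55.2%), and the gap was smaller in the wider classes. Under 300 bp the share was 42.9% for total H3 and 40.0% for pan H4, whereas at 1000 to 2000 bp it was 98.3% and 97.2%. Total H3 and pan H4 lists were longer than the H3K4me3 lists, and the part of their length in this difference was not tested.

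**Figure D2:**
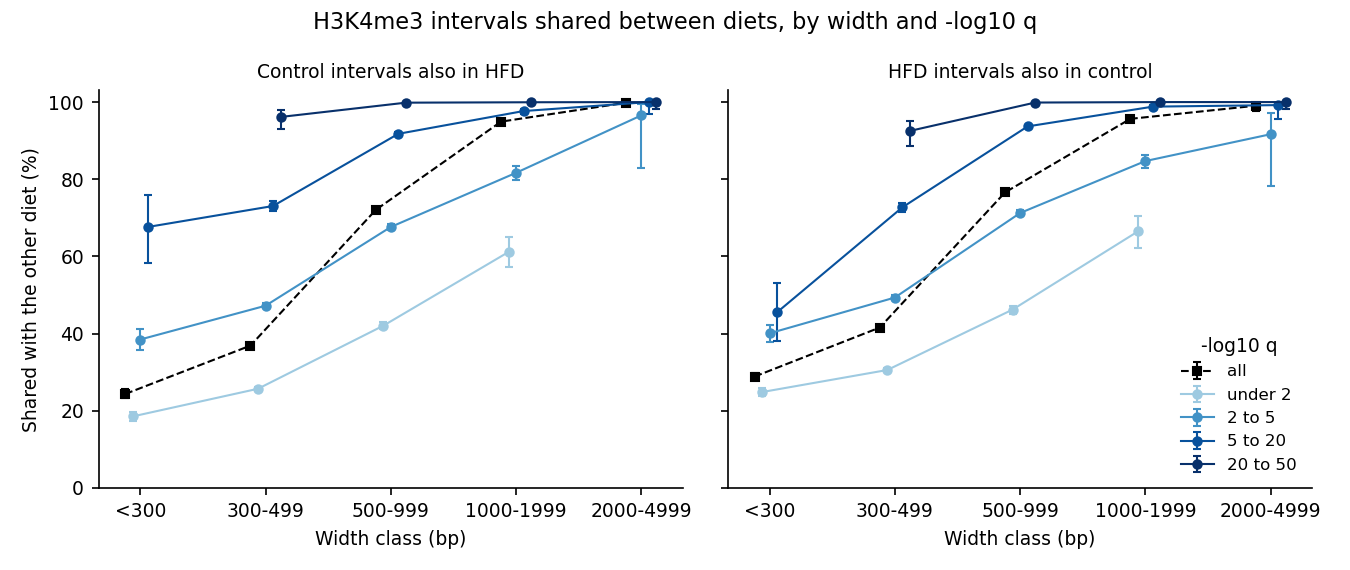
Share of H3K4me3 intervals that overlapped an interval of the other diet (y axis, %) by width class (x axis, bp), for control intervals on the left and HFD intervals on the right. Squares on the dashed line are all intervals, circles are intervals within a class of −log10 q, bars are 95% Wilson intervals, and points of fewer than 20 intervals are left out. Within the class 2 to 5 the control share rose from 38.4% to 96.6%, the latter being 28 of 29 intervals.

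The diet-specific intervals were alike in both diets. Control-only intervals had a median width of 383 bp and HFD-only intervals one of 372 bp, against 625 and 590 bp for shared intervals, and 77.8% and 80.7% of them were narrower than 500 bp. Their median summit held 6 fragments in each diet, against 12 and 11 in shared intervals, and their median −log10 q was 1.57 in control and 1.61 in HFD. At a −log10 q of at least 5 there were 2030 control-only intervals (3.98%) and 2244 HFD-only intervals (4.92%), and at 20 or more only 17 and 29 were left. The nearest interval of the other diet lay a median of 5606 bp away from a control-only interval and 4736 bp away from an HFD-only interval. It lay within 1000 bp for 13.2% and 15.5% of them. Most diet-specific intervals were thus separate places and not a fragment of a neighboring interval of the other diet.

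Wide diet-specific intervals were rare and low. They numbered 625 of at least 1000 bp in control and 462 in HFD, out of 12938 and 11035. The widest in control was chr5:138379039-138381087, of 2049 bp with 9 fragments at its summit, followed by chr10:101817951-101819925 with 9 and chr20:12553731-12555652 with 7. The widest in HFD was chr2:103533250-103535531, of 2282 bp with 12 fragments, followed by chr7:42452682-42454780 with 13 and chr6:61994922-61996966 with 9. All 6 had a relative pileup between 5.68 and 12.03.

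The strongest diet-specific intervals had a different shape, being short and high. In control they were chr2:4498275-4498570, of 296 bp with 110 fragments, chr3:174540822-174541122, of 301 bp with 47, and chr4:180120581-180120963, of 383 bp with 56. In HFD they were chr12:9540273-9540801, of 529 bp with 684 fragments, chr4:146538754-146539047, of 294 bp with 278, and chr6:28614173-28614517, of 345 bp with 57. At the first HFD-only place, total H3 reached a relative pileup of 941 in control and 1379 in HFD, and at the first control-only place it reached 243 and 316. At both of these places total H3 thus had high peaks in both diets although H3K4me3 was listed in 1 diet. The third HFD-only place differed, as total H3 had no summit there in either list and pan H4 had one in HFD alone, with a relative pileup of 87.2. What these places hold was not analysed here, and how the missing interval came about was not tested.

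Peaks of each of the other antibodies, which played no part in choosing the intervals, were more frequent at shared than at diet-specific intervals. Of the shared control intervals, 96.2% overlapped a control H4K16Ac peak, the mark of open chromatin that the study also mapped, against 66.6% of the control-only intervals. H3K27me3, the Polycomb mark, was found at 62.7% of the shared control intervals and at 13.3% of the control-only intervals. Total H3 peaks covered 91.1% and 50.04%, and pan H4 peaks 93.5% and 56.6%. Shared intervals are wider and stronger, and among control intervals with a −log10 q of 2 to 5 the gaps were smaller. The shares there were 96.3% and 82.8% for H4K16Ac, 44.7% and 18.9% for H3K27me3 and 89.6% and 66.4% for total H3. Among control intervals of at least 1000 bp they were 99.7% and 89.4%, 94.4% and 37.9%, and 99.1% and 78.9%, in the same order. Width and strength were not held fixed together. HFD-only intervals had more H4K16Ac, pan H4 and total H3 in HFD than in control, and fewer H3K27me3 peaks (14.3% in control and 8.85% in HFD). HFD-only intervals overlapped an H4K16Ac peak in 71.3% of cases in the HFD list and in 66.0% in the control list, and a pan H4 peak in 64.7% and 53.0%. Shared control intervals had a smaller difference in the same direction, with 97.1% in HFD and 96.2% in control for H4K16Ac and 96.2% and 93.5% for pan H4. Control-only intervals overlapped H4K16Ac in 66.6% of cases in control and in 62.8% in HFD, and pan H4 in 56.6% and 56.8%.

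Wide HFD-only intervals showed larger differences of this kind. Of the 462 HFD-only intervals of at least 1000 bp, 93.9% overlapped H4K16Ac, 91.1% pan H4 and 82.7% total H3 in HFD, against 75.3%, 72.3% and 54.3% in control. Of the 625 control-only intervals of this width, 89.4% overlapped H4K16Ac, 87.2% pan H4 and 78.9% total H3 in control, against 85.6%, 84.3% and 78.6% in HFD. H3K27me3 was found at 37.9% of these control-only intervals in control and at 17.0% in HFD, and at 36.6% of the HFD-only intervals in control and 22.9% in HFD. The lower H3K27me3 shares in HFD therefore held for both sets, and also for the shared control intervals, with 62.7% in control and 43.3% in HFD. The libraries of the antibodies could share litters, which the labels do not say, and the lists of the marks differ in length.

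Where an interval of one list overlapped exactly 1 interval of the other, the pair was compared directly, which gave 60715 pairs. In these pairs the HFD interval was on the whole narrower, at both ends. Control members of the pairs had a median width of 623 bp and HFD members one of 591 bp, with a median difference of −29 bp, the start lying 11 bp further in and the end 12 bp further in. The HFD interval was narrower in 58.2% of the pairs (57.8% to 58.6%) and wider in 41.5%. Large changes leaned the same way, since 12.6% of the pairs (7675) were at least 1.5 times narrower and 8.86% (5380) at least 1.5 times wider. Pairs were classed by the geometric mean of both diets, so that neither list chose the class. By this mean width, the share narrower in HFD was 53.8% at 300 to 500 bp, 58.4% at 500 to 1000 bp, 67.3% at 1000 to 2000 bp and 64.1% of 468 pairs at 2000 to 5000 bp. Splits and fusions were few, as 610 control intervals overlapped 2 or more HFD intervals and 374 HFD intervals overlapped 2 or more control intervals.

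Over all pairs the height hardly differed, with a median log2 ratio of the relative pileup of −0.02 and 51.9% of the pairs lower in HFD. High H3K4me3 peaks, however, were lower and narrower in HFD, and low peaks differed less. At a relative pileup of 50 to 100, which held 6255 pairs, the median relative pileup was 82.8 in control and 63.9 in HFD, and 86.0% of the pairs were lower in HFD. At 100 and over, which held 3024 pairs, the medians were 138 and 106, and 89.3% were lower. The median change was −0.38 on the log2 scale in each of these classes. For the 9279 pairs of 50 and over together, the median went from 96.6 to 74.97, the ratio was 0.770, and 76.6% of the pairs (75.8% to 77.5%) were narrower in HFD, by a median of 62 bp from 1112 to 1032 bp. Among them 23.1% were at least 1.5 times lower and 1.83% at least 1.5 times higher, where the shares among all pairs were 13.5% and 15.3%. Classing the pairs by one diet alone gave the same direction, as control peaks of 50 to 100 had a ratio of 0.778 and HFD peaks of 50 to 100 had a ratio of 0.777.

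Lower peaks lost this difference step by step. At 20 to 50 the median change was −0.10 on the log2 scale with 61.4% of 7808 pairs narrower, and at 10 to 20 it was 0.07 with 53.9% of 11594 narrower. Under 10 it was 0.19, but equal whole numbers of fragments already give this ratio when the backgrounds differ as they do here, and the median pair had 8 fragments in each diet. Counts over each whole list went from more to fewer intervals in HFD with height. Intervals with a relative pileup of at least 5 numbered 77243 in control and 87276 in HFD, and those of at least 10 numbered 31693 and 37656. Those of at least 20 numbered 17871 in control and 18124 in HFD, those of at least 50 numbered 10145 and 8656, and those of at least 100 numbered 4381 and 1992, a ratio of 0.455. At 200 and over, which few intervals reached, they numbered 196 and 154. Low thresholds can fall at different whole numbers of fragments in control and HFD, as the backgrounds differ. For total H3, intervals of at least 50 numbered 4101 in control and 2533 in HFD, and those of at least 100 numbered 626 and 676. For pan H4 the numbers were 2636 and 5812 at 50, and 356 and 755 at 100. The size of the difference at high peaks depends on the scaling. The authors' fold enrichment divides by the local background, which had a median of 9.03 fragments in control and 6.13 in HFD at the pairs of 50 and over, and of 1.23 and 1.08 at those under 5. By fold enrichment these high pairs went from 12.3 to 11.6, a median log2 change of −0.07 in place of −0.38, with 66.0% lower in HFD. The local background, divided by that of the whole list, had itself a median log2 change of −0.36 there. By relative pileup, high peaks and the local background at them were thus lower together in HFD. Whether an input was used is not given in the sources used here. Without one, the local background would hold fragments of the peak itself. These values therefore cannot show how far the peak stood out from its surroundings.

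By relative pileup, total H3 was lower in HFD along with H3K4me3 at these intervals, and pan H4 was higher. At the pairs of relative pileup 50 and over, the highest total H3 summit within the interval went from a median of 42.4 in control to 32.8 in HFD, with 83.9% of 9266 lower. The highest pan H4 summit went from 39.0 to 47.2, with 14.2% of 9271 lower. The median log2 change was −0.38 for the mark itself, −0.33 with the total H3 antibody and 0.28 with pan H4. Taken per interval, the H3K4me3 change less the total H3 change had a median of −0.02, and the H3K4me3 change less the pan H4 change had a median of −0.64. Relative to total H3 the mark was thus near its control level at high peaks, and relative to pan H4 it was lower. Across these intervals the changes of H3K4me3 and total H3 had a Pearson correlation of 0.32, as did those of H3K4me3 and pan H4 at 0.31, where each point is 1 place and all points share the same libraries. The label of replicate 3 of control total H3 names both diets, so that the total H3 values hold with that doubt. Immunoprecipitation efficiency and the amount of the mark cannot be told apart in these lists, since the sources used here name no spike-in.

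**Figure D3:**
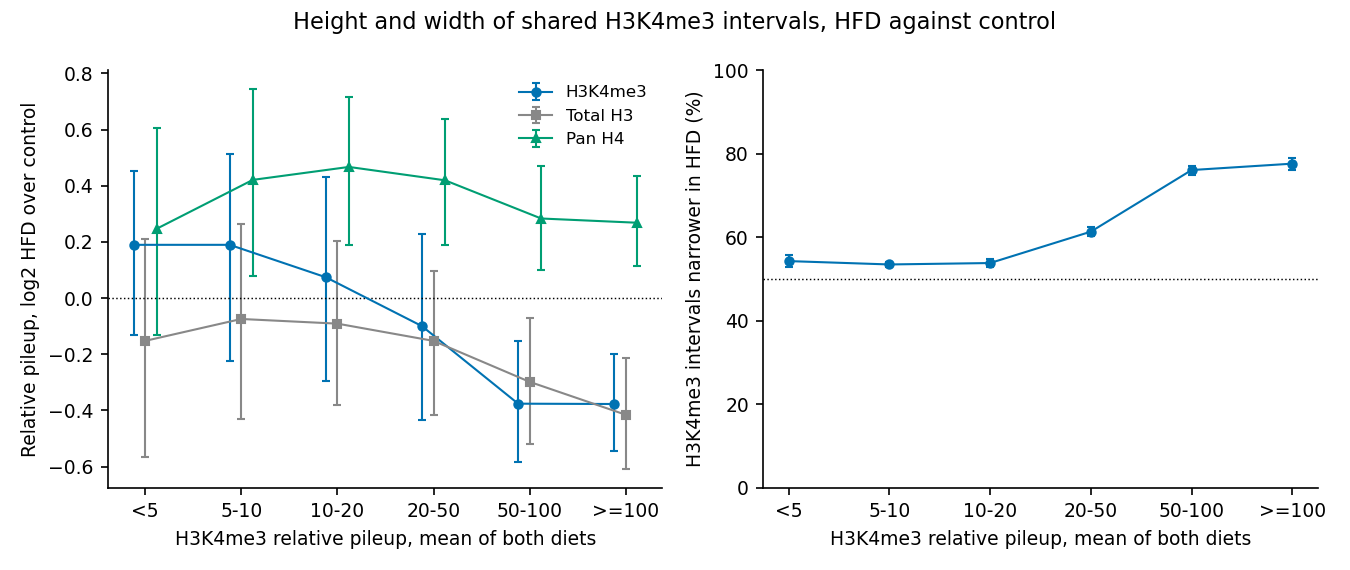
Left, median log2 ratio of the relative pileup, HFD over control (y axis), at the paired H3K4me3 intervals by class of their H3K4me3 relative pileup (x axis, geometric mean of both diets), for H3K4me3 and for the highest total H3 and pan H4 summits in the same intervals, with bars from the 25th to the 75th percentile. Right, share of the pairs that were narrower in HFD (y axis, %) with 95% Wilson intervals. H3K4me3 reached −0.38 in the highest classes, total H3 −0.42 and pan H4 0.27 at 100 and over, and the share narrower was 77.7% there.

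Changes of single wide regions were examined in pairs with a −log10 q of at least 5 in both diets and at least 2000 bp in the wider one. There were 574 of these, of which 375 (65.3%) were narrower in HFD, with a median width ratio of 0.981. The largest narrowing was at chr1:264582512-264584688, from 2177 to 1211 bp and from 2 summits to 1, with 30 fragments in control and 25 in HFD. At chr1:78353343-78356122 the width went from 2780 to 1594 bp and the summits from 4 to 2, with 141 and 122 fragments. At chr8:104911438-104913510 it went from 2073 to 1214 bp, and here the height went down as well, from 169 to 88 fragments, a ratio of relative pileups of 0.594. The regions that narrowed most thus also had fewer summits in HFD.

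The largest widening started from low, single-summit intervals. At chr4:88404607-88405259 the width went from 653 bp in control to 2177 bp in HFD with 12 and 16 fragments. At chr3:167349548-167350302 it went from 755 to 2026 bp with 11 and 18 fragments, and at chr2:65991445-65992252 from 808 to 2055 bp with 22 and 21 fragments. In these the strongest summits lay 1, 19 and 7 bp apart, so that the peak stayed in place while the interval grew. Each of the 3 grew mainly at 1 end.

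The strongest summits of high paired intervals lay close together in both diets, and those of low ones lay further apart. The absolute distance between the strongest summits of both diets had a median of 53 bp, and 68.2% of the pairs (67.8% to 68.6%) were within 100 bp. The median distance fell from 119 bp at a relative pileup under 5 to 75 bp at 5 to 10, 49 bp at 10 to 20, 34 bp at 20 to 50, 26 bp at 50 to 100 and 23 bp at 100 and over. In the highest class 91.7% were within 100 bp and 45.7% within 20 bp, against 44.1% and 10.6% in the class under 5. Shifts had no preferred direction along the chromosome, with a median signed distance of −1 bp over all pairs. With the nearest HFD summit in place of the strongest, the median was 50 bp. Width had less to do with the distance, which was 56 bp at 300 to 500 bp, 54 bp at 500 to 1000 bp and 44 bp at 1000 to 2000 bp, and rose to 69 bp at 2000 to 5000 bp, where the pairs had a mean of 3.21 summits in control.

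**Figure D4:**
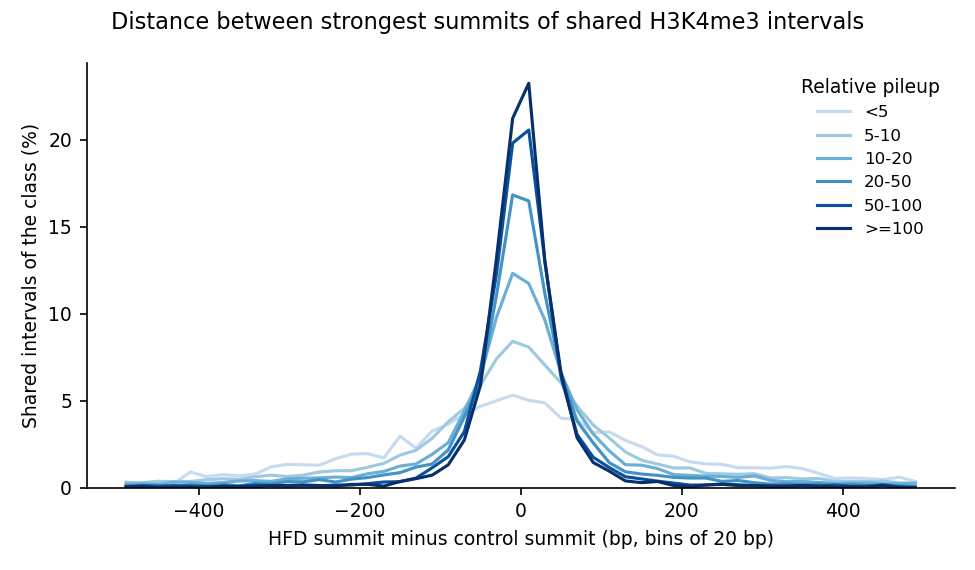
Distribution of the distance from the strongest control summit to the strongest HFD summit (x axis, bp, bins of 20 bp) as a share of the paired intervals of each class of relative pileup (y axis, %). The distribution was centered on 0 in each class and narrowed with height, from a median absolute distance of 119 bp under 5 to 23 bp at 100 and over.

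Distances over 500 bp were seen in 2258 pairs, of which 44.6% had several summits in at least one diet, against 17.7% of all pairs. The number of summits was the same in 88.5% of the pairs, higher in HFD in 3381 and lower in 3579. Of the 7877 pairs with several summits in control, 47.7% kept their number and 45.4% had fewer in HFD, and of the 7626 with several in HFD, 49.3% had the same number in control and 44.3% had fewer there. The numbers thus changed about as often either way. Among the pairs of relative pileup 50 and over, 83.1% kept the number, 9.32% had more summits in HFD and 7.53% had fewer, so that these lower and narrower HFD peaks were not listed with fewer summits.

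In 5617 pairs with a −log10 q of 50 and over in both diets, 46.7% of the strongest summits (2625) lay within 20 bp of each other and 51 lay more than 500 bp apart. The largest shift was at chr6:99400268-99402693, with 1159 bp, followed by chr1:246109877-246111677 with 1084 bp and chr1:50826990-50829204 with 1009 bp. These intervals were 2426, 1801 and 2215 bp wide in control and 2332, 1722 and 2203 bp in HFD, and each had several summits in both diets. Width and extent were thus nearly the same, and the place of the highest summit within the region differed.

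The highest peaks of the shared intervals were also very high with the other antibodies. At chr4:77447693-77448711, 5724 fragments in control stood against 3698 in HFD, at chr1:180645721-180646405 it was 3160 against 6551, and at chr9:12093704-12094596 it was 1968 against 1454. Total H3 had a relative pileup between 1531 and 5710 at these places. Their H3K4me3 values went in both directions, and how much of these values reflects the mark was not tested.

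The differences were alike on the autosomes, and the X chromosome stood apart. On the 20 autosomes the number of HFD intervals was 0.912 to 0.984 times that in control, the paired intervals had a median log2 width ratio from −0.08 to −0.04, and the peaks of relative pileup 50 and over had a median log2 change from −0.42 to −0.33. On chromosome X there were 2635 control and 3267 HFD intervals, a ratio of 1.24. Its 1797 pairs had a median log2 width ratio of −0.02, and its 109 pairs of relative pileup 50 and over had a median log2 change of −0.12, with 56.0% lower in HFD where the autosomes had 79.7% to 90.3%. Of the control intervals on X 70.2% were kept in HFD, against 51.2% to 57.1% on the autosomes, whereas the HFD share also in control was 57.0%, within the autosomal range of 55.6% to 61.0%. The Y chromosome held 64 control and 82 HFD intervals, a ratio of 1.28, with 3 high pairs. H3K4me3 was thus listed more often on X in HFD while it was listed less often on every autosome.

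This was seen with other antibodies as well. The ratio of X intervals was 1.42 for total H3 (autosomes 0.994 to 1.12), 1.27 for pan H4 (0.941 to 1.06) and 1.16 for H4K16Ac (0.964 to 1.05), while for H3K27me3 it was 0.814, within its autosomal range of 0.740 to 0.952. On Y, which held few intervals in any list, the ratio was 1.32 for total H3, 1.55 for pan H4, 1.44 for H4K16Ac and 0.795 for H3K27me3. At the 109 high H3K4me3 pairs on X, the total H3 change was 0.00 on the log2 scale and the pan H4 change 0.39, against −0.34 and 0.28 on the autosomes. The sex of the pooled embryos is not given in the sources used here, and the part of the sex ratio of the litters in these values was not tested. The autosomes alone gave the values of the whole genome, with a median log2 change of −0.38 at the 9112 high pairs.

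**Figure D5:**
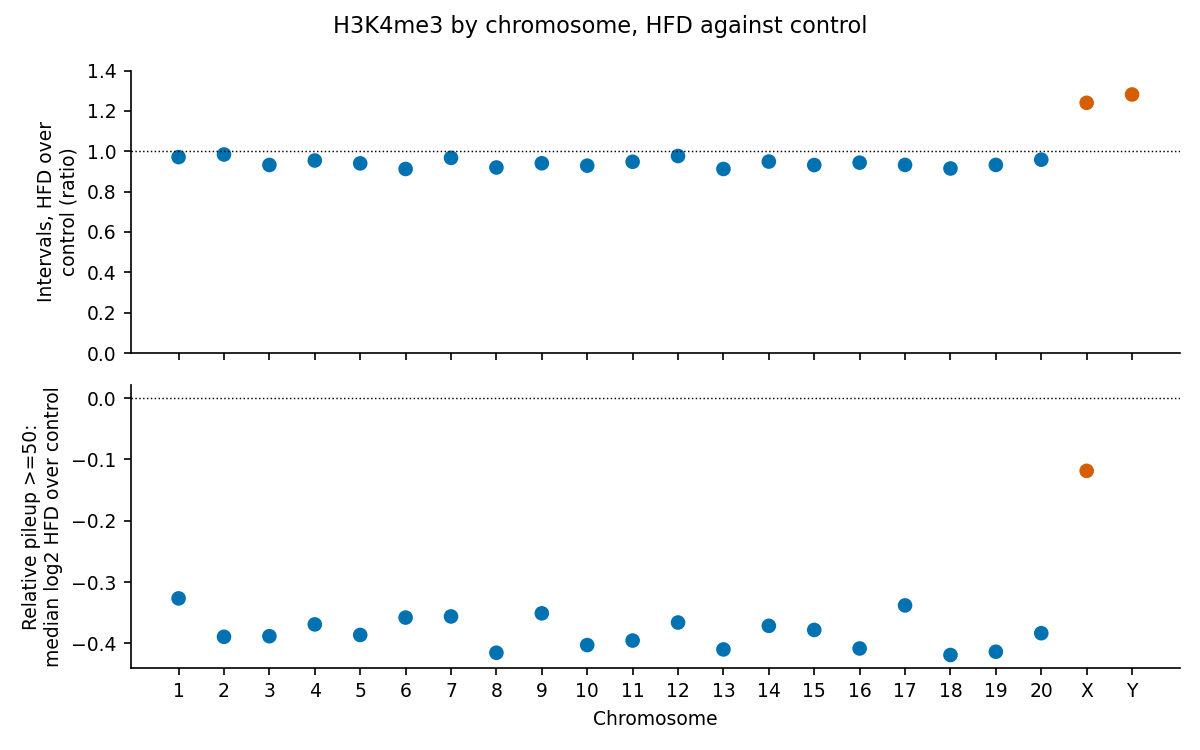
Top, number of H3K4me3 intervals in HFD over that in control (y axis, ratio) for each chromosome. Bottom, median log2 ratio of the relative pileup, HFD over control (y axis), at paired intervals of relative pileup 50 and over, with the Y chromosome left out because it has 3 such pairs. Autosomes are in blue and sex chromosomes in orange, and X stood at 1.24 above and at −0.12 below.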

How the data were processed

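Per the labels, alignment by the authors used Bowtie2 and the genome build rn6, and MACS2 was their peak caller. The study's methods state that recommended options were used, and versions and the options themselves are not given in the sources used here. The deposited lists give, for each summit, a score, a fold enrichment (a ratio to the local background) and the −log10 of p and q, all computed by the authors. Repeated lines of an interval were read as its summits, and the strongest by −log10 q stood for the interval. Listed q-values reached 0.499. Widths, overlaps and distances were computed with Python 3.11.15, numpy 2.4.6, pandas 2.3.3 and scipy 1.17.1. From fold enrichment and p, a whole-number pileup was found within 0.1% for 100% of the summits. Of the intervals, 99.2% in control and 99.0% in HFD lay on chromosomes 1 to 20, X and Y. Members and measures were chosen with earlier results of these data known. Named regions follow 1 rule: the 3 most extreme intervals by width, summits, −log10 q, width ratio or summit distance. Planned gene names needed an rn6 annotation and were not used here. Functions were tested on simulated intervals.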

Additional observations from a re-analysis of the deposited data

How the results depend on the processing

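No paired analysis was possible because each diet has 1 list for its 3 libraries, and leaving out a replicate was not possible for the same reason. Of 82 values under other settings, 50 kept their direction and stayed close to the reported value, among them the ratio of intervals of at least 1000 bp (0.836 to 0.907). The median log2 change in height of the high pairs, −0.38, was −0.0745 by fold enrichment over the local background and −0.57 with pileups not divided by the background, while settings of q, length, merging, width and overlap leave nearly the same high pairs and say nothing on its stability. The median log2 fold enrichment ratio of all pairs, −0.03, was −0.0704 at a −log10 q of at least 5 and −0.0584 at 500 bp and wider. The ratio of shares with several summits, 0.993, turned to 1.03 with merged intervals and to 1.04 at 500 bp and wider. The share of control intervals kept, 54.9%, was 76.8% at a −log10 q of at least 5, 56.6% with lists of equal length, 56.2% merged, 60.8% at 500 bp and wider and 46.0% with 50% overlap. The share of HFD intervals also in control, 57.7%, was 77.0%, 56.8%, 59.4%, 67.0% and 48.2%. At 1000 bp and wider, the share of control intervals kept, 95.2%, was 93.4% under the −log10 q limit of 5, 89.2% merged and 84.3% with 50% overlap. The share narrower, 58.2%, was 65.3% at −log10 q of at least 5, 57.6% merged, 61.5% at 500 bp and wider and 56.1% less the shortest interval, which took the high pairs from 76.6% to 73.7%. The summit distance of 53 bp was 31 bp at −log10 q of at least 5. The share within 100 bp, 68.2%, was 83.9% at −log10 q of at least 5, 68.6% with equal lists, 66.4% merged, 69.4% at 500 bp and wider, 73.0% with 50% overlap, 70.6% to the nearest summit and 69.6% with 1 summit in both. The cause was not tested. The measures and scalings of high pairs and the subtraction of the shortest interval were added after seeing the data. Summits of 4 to 12 fragments limit what weak intervals can show.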
